A study of Mus musculus with 6 samples.

Results

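Potassium channel genes were measured by RNA-seq in the anterior cingulate cortex, which lies in the frontal midline, of BALB/c mice. The mice had 5 days of social defeat stress or no stress, with 3 libraries a group. The age of the mice is not given in the sources used here, and the labels name no allele, transgene or other agent in either group. The genes were every symbol in the deposited count table that starts with Kcn and is not an antisense or overlapping transcript, with a mean of at least 20 counts over the 6 libraries. This gave 78 genes of 45777 in the table, and all 78 passed the filter on low counts that left 19227 genes for testing. Of 98 symbols that start with Kcn, 4 antisense or overlapping transcripts (Kcnq1ot1, Kcnmb4os1, Kcnmb4os2 and Kcnd3os) and 16 genes of lower count were left out. The genes just inside the limit were Kcnmb3, with a mean of 20.3 counts, and Kcne3, with 20.8. The genes just outside it were Kcnrg, with a mean of 12.5 counts, and Kcnk7, with 9.67.

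Potassium channels let potassium ions leave the cell, which returns a neuron to rest after a spike and sets how readily it fires again. Voltage-gated channels (Kcna, Kcnb, Kcnc, Kcnd, Kcnh and Kcnq) are assembled as rings of pore subunits, to which silent subunits (Kcnf, Kcng, Kcns and Kcnv) and accessory proteins (Kcnab, Kcne and Kcnip) are added. Inward rectifiers (Kcnj) and channels with a paired pore domain (Kcnk) hold the resting potential, and calcium- or sodium-activated channels (Kcnm, Kcnn, Kcnt) link firing to ion entry.

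The libraries held 41623899 to 44882821 counts in the stress group and 41976809 to 47212982 in the non-stress group. Along the main axis of variation over all genes, the stress libraries lay at -20.4 to -14.9, non-stress library 1 lay with them at -11.7, and non-stress libraries 2 and 3 lay apart at 37.4 and 27.4. Mitochondrially encoded mRNAs made up 2.51% to 2.67% of the counts in stress libraries and 1.76% to 2.40% in non-stress libraries. Markers of cortical excitatory neurons summed to 3378 to 3580 CPM (a gene's counts divided by its library's total and scaled up alike in every library) in stress libraries and 3436 to 3716 CPM in non-stress libraries, and none of the 6 was at 0. Of markers of tissues outside the region, 6 choroid plexus and ependyma genes summed to 4.95 to 14.1 CPM in stress libraries and 10.1 to 15.4 CPM in non-stress libraries, and 6 pituitary genes summed to 3.79 to 14.2 CPM in stress libraries and 1.14 to 3.06 CPM in non-stress libraries. Of the pituitary genes, Gh had 337, 400 and 30 counts in stress libraries, against 9, 6 and 0 counts in non-stress libraries. The labels do not state that each library is a different animal, so p-values measure the spread between these libraries, which may be technical. In bulk tissue, fewer cells of a type and less RNA per cell cannot be told apart.

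As a group, the potassium channel genes differed little between stress and non-stress cortex. Their summed level was 3544, 3568 and 3594 CPM in the stress libraries, against 3728, 3757 and 3627 CPM in the non-stress libraries. Every stress library was below every non-stress library in this sum, in which highly counted genes weigh most. Kcnab2 averaged 116 CPM in stress and 158 CPM in non-stress libraries, and Kcna1 averaged 161 and 188 CPM. Kcnh7 went the other way, at 79.8 and 57.5 CPM. None of the 78 genes passed an adjusted p of 0.05 in edgeR's quasi-likelihood test with Benjamini-Hochberg adjustment over all 19227 genes, where the background was 0.0052%, or 1 gene. The lowest adjusted p of a potassium channel gene was 0.344. DESeq2 called 3 of them, Kcna1, Kcna2 and Kcnab2, all lower under stress, against a background of 0.999% of the genes to which it gave an adjusted p and 0.579% in the lower direction. It gave none to 19 of the 78. The limma-voom fit called 0, against a background of 0.0104%.

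At an unadjusted p under 0.05 in edgeR, 19 of the 78 genes were counted, or 24.4%, against 12.1% of all genes tested. Of these, 13 genes, or 16.7%, were lower under stress (background 6.27%), and 6 genes, or 7.69%, were higher (background 5.8%). The 2 groups of libraries did not overlap for 17 genes, or 21.8%, against 17.9% of all genes. Of these 17, 13 were lower under stress (16.7%, background 9.43%) and 4 were higher (5.13%, background 8.43%). The log2 fold change, stress over non-stress, was above 0 for 33 genes and below 0 for 45, and 49.8% of all genes lay above 0. The median was -0.03 over the 78 genes and -0.00053 over all genes tested. For 36 of the 78 genes, the 95% interval of the fold change lay inside 1.25-fold in either direction.

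**Figure D1:**
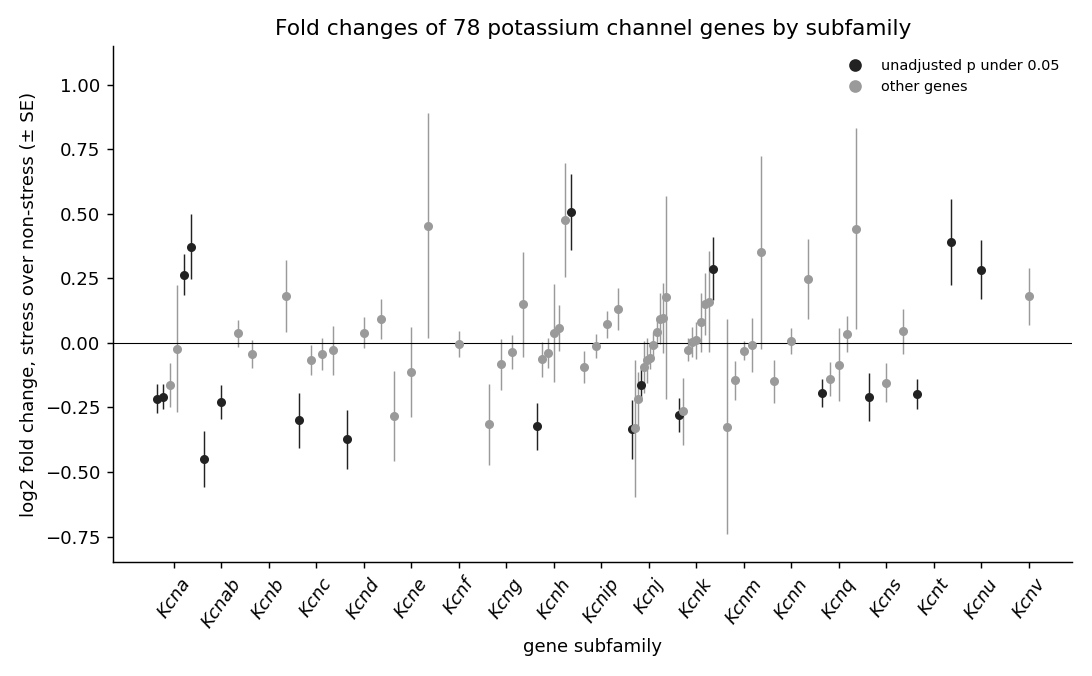
Log2 fold change (stress over non-stress, edgeR) of each of the 78 potassium channel genes on the vertical axis, with bars of 1 SE, grouped by gene subfamily on the horizontal axis; black points have an unadjusted p under 0.05. Kcna and Kcnh hold genes on both sides of 0, and the widest bars belong to genes of low count. The points of the 4 Kcnc genes lie below 0, and the bar of Kcnc1 crosses it.

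The Kv1 channels, which are encoded by the Kcna genes and sit at the axon's initial segment and along its length, held genes with fold changes on both sides of 0. Kcna1, whose loss in mice and humans gives seizures and ataxia, had 157, 163 and 163 CPM in stress libraries, against 172, 192 and 199 CPM in non-stress libraries. Its log2 fold change was -0.22 (SE 0.06), with an edgeR adjusted p of 0.344 and a DESeq2 adjusted p of 0.0455. Kcna2, its usual partner in the same ring, had 98.7, 101 and 92.8 CPM in stress libraries, against 115, 112 and 111 CPM in non-stress libraries. All 3 stress libraries were below all 3 non-stress libraries for both genes, and non-stress library 1 was the nearest to the stress libraries for Kcna1 and the farthest from them for Kcna2. The log2 fold change of Kcna2 was -0.21 (SE 0.05), with an edgeR adjusted p of 0.344 and a DESeq2 adjusted p of 0.0166.

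Kcna3, best known for its role in T cells and microglia and also made by neurons, had 26.7, 28.3 and 30.1 CPM in stress libraries, against 25.6, 23.8 and 21.5 CPM in non-stress libraries. The fitted log2 fold change was 0.26 (SE 0.08; edgeR adjusted p = 0.345). Kcna4, which forms a fast-inactivating A-type current, had 23.5, 23.6 and 23.2 CPM in stress libraries, against 22.5, 15.1 and 16.8 CPM in non-stress libraries. For both genes the stress libraries were above all non-stress libraries, but non-stress library 1 was close to the stress values for Kcna4. The log2 fold change of Kcna4 was 0.37 (SE 0.12; edgeR adjusted p = 0.351). Beside Kcna3, the 8 microglial markers summed to 497 to 529 CPM in stress libraries and 517 to 519 CPM in non-stress libraries, 0 of 8 passed an unadjusted p of 0.05 and none was at 0. Their part in the level of Kcna3 was not tested.

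Kcna6, another axonal subunit, averaged 59.5 ± 3.19 CPM in stress libraries and 66.5 ± 8.24 CPM in non-stress libraries (SD, n = 3 each), and the groups overlapped. In edgeR, the log2 fold change was -0.16 (edgeR adjusted p = 0.473), and the gene Gm26673 overlaps it on the other strand. Kcna5, at 1.71 ± 0.567 CPM in stress libraries and 1.73 ± 0.164 CPM in non-stress libraries (SD, n = 3 each), had an interval from -0.57 to 0.53 on the log2 scale, too wide to place it. Per kilobase of the longest transcript, averaged over the 6 libraries, Kcna1 led the family at 43.3 CPM per kb. The other levels were 9.08 for Kcna2, 13.7 for Kcna3, 10.8 for Kcna6 and 4.34 for Kcna4. These levels, and those per length below, depend on the transcript length used, which was 11582 bases for Kcna2 and 1902 for Kcna3. Before division by length, Kcna2 averaged 105 CPM, Kcna6 63.0 CPM and Kcna3 26.0 CPM.

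The Kcnab genes encode the cytoplasmic beta subunits that bind Kv1 rings and help carry them to the axon. Kcnab2, the main beta subunit of forebrain axons, had 113, 119 and 114 CPM in stress libraries, against 150, 191 and 134 CPM in non-stress libraries. Kcnab3 had 65.8, 67.3 and 64.0 CPM in stress libraries, against 70.4, 84.0 and 76.9 CPM in non-stress libraries. Neither gene's groups overlapped, and the stress libraries lay closer together than the non-stress libraries for both. The log2 fold change of Kcnab2 was -0.45 (SE 0.11), the lowest of the 78 genes, with an edgeR adjusted p of 0.344 and a DESeq2 adjusted p of 0.00557. That of Kcnab3 was -0.23 (SE 0.07; edgeR adjusted p = 0.344, DESeq2 adjusted p = 0.0977). Gm16334 overlaps Kcnab2 on the same strand and Kcnab3os overlaps Kcnab3 on the other strand, so some reads may belong to those transcripts. Kcnab1, which gives Kv1 channels fast inactivation, had 110, 102 and 111 CPM in stress libraries, against 109, 102 and 103 CPM in non-stress libraries. Its groups overlapped, and its log2 fold change of 0.04 had a 95% interval from -0.08 to 0.15. Summed, the 3 beta subunit genes gave 289, 288 and 289 CPM in stress libraries, against 329, 377 and 313 CPM in non-stress libraries, while the 6 Kcna genes gave 365, 382 and 369 CPM in stress libraries, against 396, 420 and 415 CPM in non-stress libraries.

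**Figure D2:**
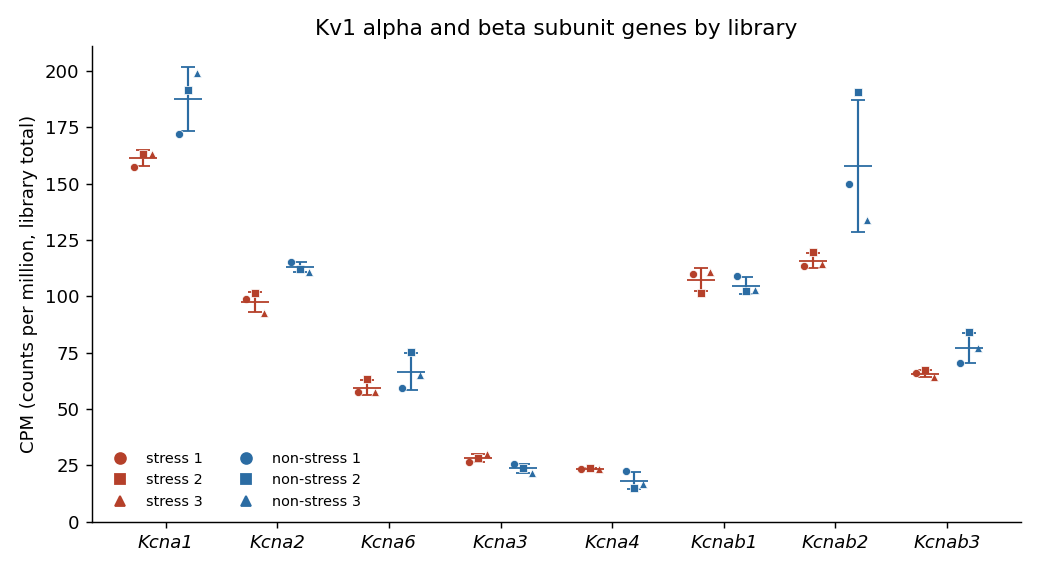
CPM of Kv1 pore subunit genes and of their beta subunit genes in each library, with stress libraries (red) left of non-stress libraries (blue), long lines at the group means and bars of 1 SD (n = 3). Kcna1, Kcna2, Kcnab2 and Kcnab3 are lower in every stress library than in any non-stress library, Kcna3 and Kcna4 are higher, and Kcna6 and Kcnab1 overlap.

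Promoters are shown for the Kv1 genes of opposite direction and for Kcnab2, because Kcna2 and Kcna3 are neighbours on chromosome 3 and because the study's title names cAMP signalling. Kcna3 lies at chr3:107036162-107038129 and Kcna2 at chr3:107090883-107115005 (GRCm38). Each sequence is the RefSeq window (GRCm38.p6) of 300 bases around a transcript start, most of it upstream of that start, 5′ to 3′ on the gene's strand. Capitals mark TGACG, or CGTCA where it lies on the other strand, the half-site of the cAMP response element.
Kcna2: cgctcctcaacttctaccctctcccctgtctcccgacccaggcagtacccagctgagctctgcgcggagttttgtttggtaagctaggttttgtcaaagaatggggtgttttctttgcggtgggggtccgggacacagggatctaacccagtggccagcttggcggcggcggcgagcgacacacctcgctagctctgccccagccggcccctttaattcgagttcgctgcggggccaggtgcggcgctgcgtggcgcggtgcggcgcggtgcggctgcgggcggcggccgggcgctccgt
Kcna3: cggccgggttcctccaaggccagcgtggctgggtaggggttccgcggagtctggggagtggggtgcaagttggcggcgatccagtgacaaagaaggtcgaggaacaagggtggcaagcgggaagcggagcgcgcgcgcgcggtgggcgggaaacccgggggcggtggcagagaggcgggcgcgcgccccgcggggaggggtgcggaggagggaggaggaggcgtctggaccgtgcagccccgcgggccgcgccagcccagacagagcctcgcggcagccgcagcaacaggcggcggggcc
Kcna4: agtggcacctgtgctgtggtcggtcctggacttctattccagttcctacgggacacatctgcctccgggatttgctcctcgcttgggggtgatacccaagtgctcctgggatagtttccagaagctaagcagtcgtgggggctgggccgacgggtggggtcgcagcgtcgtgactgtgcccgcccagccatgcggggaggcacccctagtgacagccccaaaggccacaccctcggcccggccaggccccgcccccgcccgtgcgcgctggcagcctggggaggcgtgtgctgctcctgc
Kcnab2: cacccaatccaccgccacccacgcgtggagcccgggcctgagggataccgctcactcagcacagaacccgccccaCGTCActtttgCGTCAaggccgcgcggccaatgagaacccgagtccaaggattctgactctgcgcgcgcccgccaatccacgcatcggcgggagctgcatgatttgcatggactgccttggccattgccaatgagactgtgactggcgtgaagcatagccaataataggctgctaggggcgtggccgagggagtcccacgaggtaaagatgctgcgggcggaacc
The Kcna2 window is chr3:107101317-107101616 on the plus strand, inside the span given above and downstream of its first base, so it belongs to a later start than the one that opens the span. The window of Kcna3 is chr3:107035912-107036211 on the plus strand, and that of Kcna4 chr2:107290339-107290638 on the plus strand. The Kcnab2 window is chr4:152477500-152477799 on the minus strand, at the most upstream of 3 starts in the table. The Kcnab2 window held 2 half-sites and the windows of Kcna2, Kcna3 and Kcna4 held 0. The half-site was in 20.81% of all 32851 promoter windows of the same length, which count every start of 27025 genes. It was in 25.45% of the windows of the 55 potassium channel genes with an entry. Those windows were taken only at the most upstream start listed for each gene, so the 2 sets are not alike. The GC box GGGCGG, searched on both strands, was found 1, 2, 3 and 2 times in Kcna2, Kcna3, Kcna4 and Kcnab2, and was in 35.66% of all windows and in 52.73% of those of the 55 potassium channel genes. These matches describe letters in the windows only. The table had no entry for Kcna1 and Kcnab3.

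Delayed rectifiers and fast channels of the Kcnb, Kcnc and Kcnd families had no gene past the adjusted threshold. Kcnb2, a delayed rectifier of cell bodies, had a log2 fold change of 0.18 (edgeR adjusted p = 0.613), with 26.5, 27.4 and 26.1 CPM in stress libraries, against 29.9, 18.8 and 21.9 CPM in non-stress libraries. Non-stress library 1 was above every stress library for Kcnb2 and the other 2 were below.

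The Kcnc genes encode the Kv3 channels that let fast-spiking interneurons fire at high rates. All 4 had log2 fold changes below 0, with a median of -0.05. Kcnc1, the most counted of the family, averaged 140 ± 6.16 CPM in stress libraries and 144 ± 11.6 CPM in non-stress libraries (SD, n = 3 each; edgeR adjusted p = 0.814). Beside these, 6 interneuron markers summed to 633 to 645 CPM in stress libraries and 629 to 675 CPM in non-stress libraries. Not all 6 are particular to parvalbumin interneurons, and Gad1 and Gad2 are the most counted of them. Of these markers, Gad1 and Lhx6 were lower at an unadjusted p under 0.05, with log2 fold changes of -0.11 and -0.18, Pvalb had -0.05 and Tac1 -0.03, Erbb4 had 0.24 and Gad2 0.14 without passing that p, and none was at 0. Their part in the Kcnc values was not tested.

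Kcnd genes carry the A-type current of dendrites. Kcnd1, the least counted of the 3, had 5.77, 5.11 and 5.50 CPM in stress libraries, against 6.40, 7.79 and 7.03 CPM in non-stress libraries. The groups did not overlap, and the log2 fold change was -0.37 (SE 0.11; edgeR adjusted p = 0.345). Kcnd2, the main dendritic A-type subunit, averaged 59.6 ± 2.52 CPM in stress libraries and 58.1 ± 3.84 CPM in non-stress libraries (SD, n = 3 each). Its log2 fold change of 0.04 had a 95% interval from -0.10 to 0.17. Of its KChIP partners, Kcnip3, also known as the calcium-binding repressor DREAM, had 143, 142 and 143 CPM in stress libraries, against 138, 151 and 143 CPM in non-stress libraries, with a log2 fold change of -0.01. Kcnip4 had 137, 130 and 133 CPM in stress libraries, against 140, 109 and 117 CPM in non-stress libraries, where non-stress library 1 was the highest and the other 2 the lowest. The fitted log2 fold change was 0.13 (edgeR adjusted p = 0.524), and Kcnip1 had 0.07 and Kcnip2 -0.09.

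The Kcnh family, which includes the Eag and Erg channels, held the highest fold change of all 78 genes beside others below 0. Kcnh5, an Eag channel, had 13.1, 12.4 and 10.5 CPM in stress libraries, against 10.5, 7.22 and 7.62 CPM in non-stress libraries. Stress library 3 and non-stress library 1 were level at 10.5 CPM to the digits given, all other stress libraries were higher and all other non-stress libraries lower, and the log2 fold change was 0.51 (SE 0.15; edgeR adjusted p = 0.344). Kcnh7, an Erg channel of neurons, had 80.0, 78.6 and 81.0 CPM in stress libraries, against 84.3, 38.4 and 49.9 CPM in non-stress libraries. The stress values lay within 3 CPM of each other, while non-stress library 1 was above them all and non-stress libraries 2 and 3 were far below. In edgeR, the log2 fold change was 0.48 (SE 0.22; edgeR adjusted p = 0.429), and Gca overlaps it on the other strand. Kcnh2, the Erg channel best known for repolarising the heart, had 8.24, 8.31 and 9.20 CPM in stress libraries, against 11.5, 10.6 and 10.1 CPM in non-stress libraries. All stress libraries were lower, with a log2 fold change of -0.32 (SE 0.09; edgeR adjusted p = 0.344). Kcnh3, the most counted of the family, averaged 121 ± 3.98 CPM in stress libraries and 127 ± 12.2 CPM in non-stress libraries (SD, n = 3 each; edgeR adjusted p = 0.732).

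Kcnq channels carry the M-current, which muscarinic and other receptors that act through Gq close, raising excitability. Kcnq3, a cortical subunit of this current, had 24.6, 27.1 and 26.1 CPM in stress libraries, against 29.7, 26.8 and 29.2 CPM in non-stress libraries, and the groups overlapped only at stress library 2 and non-stress library 2. Its log2 fold change was -0.14 (SE 0.07; edgeR adjusted p = 0.430), and that of Kcnq5, a further cortical M-channel subunit, was 0.03 with an interval from -0.12 to 0.19. Kcnq1 was near the count limit at 0.582 ± 0.128 CPM in stress libraries and 0.426 ± 0.197 CPM in non-stress libraries (SD, n = 3 each). Kcnq1ot1 overlaps Kcnq1 on the other strand, and it had 1249, 1430 and 1637 counts in stress libraries, against 1324, 706 and 790 counts in non-stress libraries.

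The silent subunits form no channel alone and alter the Kcnb channels they join. Kcnv1 had 132, 133 and 144 CPM in stress libraries, against 147, 104 and 110 CPM in non-stress libraries, with non-stress library 1 again above the stress values. The fitted log2 fold change was 0.18 (edgeR adjusted p = 0.523). Kcnf1 averaged 103 ± 1.22 CPM in stress libraries and 103 ± 5.30 CPM in non-stress libraries (SD, n = 3 each), with an interval from -0.12 to 0.11 on the log2 scale. Kcns1 had 10.5, 12.2 and 12.5 CPM in stress libraries, against 12.9, 14.7 and 13.1 CPM in non-stress libraries, and Kcns3 and Kcng4 were likewise below all non-stress libraries. The log2 fold change of Kcns1 was -0.21 (edgeR adjusted p = 0.414). Kcne1l, Kcne3 and Kcne4, which encode small single-span accessory proteins, were all under 5 CPM.

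**Figure D3:**
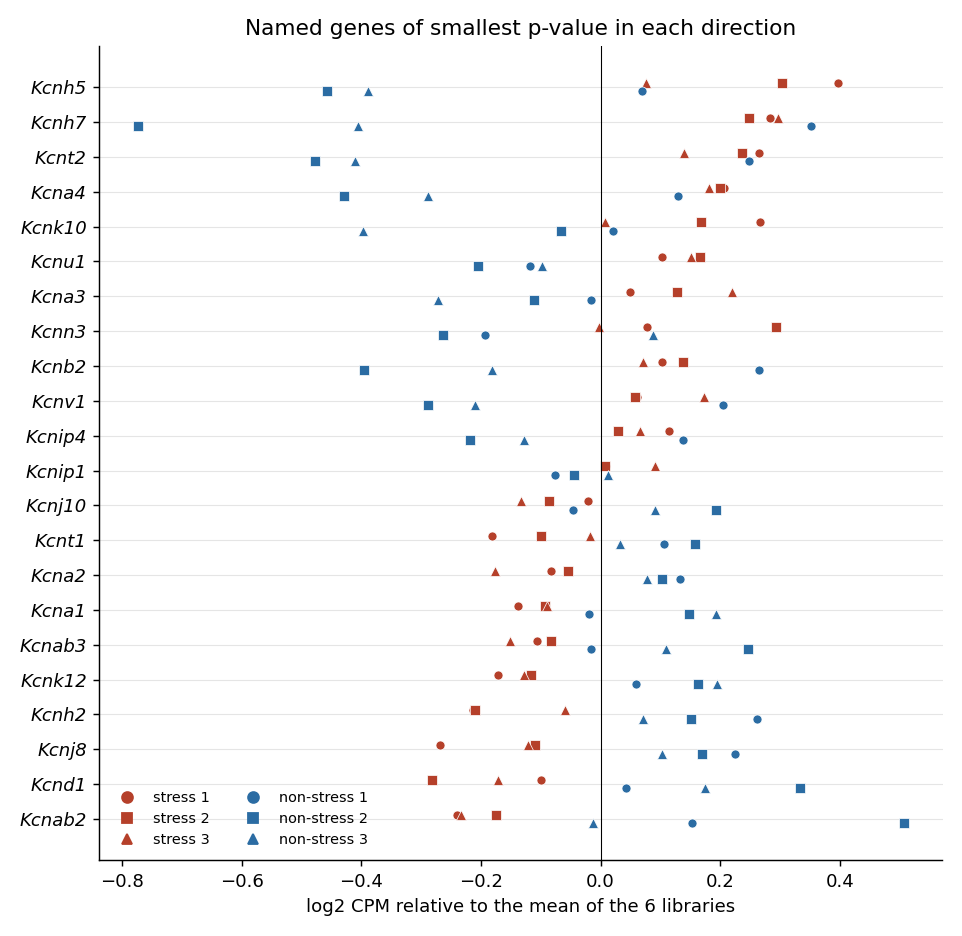
Log2 CPM of each library relative to the mean of the 6 libraries (horizontal axis) for genes of smallest p-value in each direction, with red for stress and blue for non-stress libraries and a marker shape for each replicate. Non-stress library 1 lies with the stress libraries for Kcnh7, Kcnt2, Kcna4, Kcnb2, Kcnv1 and Kcnip4, while Kcna2, Kcnk12 and Kcnt1 separate all 3 non-stress libraries from all 3 stress libraries.

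Of the inward rectifiers, 8 of 12 had a log2 fold change below 0, with a median of -0.06. Kcnj10, the astrocytic channel that takes up potassium released by neurons, had 110, 106 and 102 CPM in stress libraries, against 109, 128 and 120 CPM in non-stress libraries. Only non-stress library 1 lay within the stress values, and the log2 fold change was -0.16 (SE 0.06; edgeR adjusted p = 0.386). Kcnj16, which joins Kcnj10 in astrocytes, averaged 32.1 ± 0.858 CPM in stress libraries and 31.2 ± 1.62 CPM in non-stress libraries (SD, n = 3 each), and the groups overlapped. The 8 astrocyte markers summed to 2878 to 2967 CPM in stress libraries and 2879 to 2996 CPM in non-stress libraries. In this sum Aldoc weighed most, at 1400 CPM over the 6 libraries. Of the 8, 1 (Aldh1l1, log2 fold change -0.17) was lower at an unadjusted p under 0.05, and none was at 0. Gfap was uneven, with 13.2, 12.5 and 14.5 CPM in stress libraries, against 26.6, 5.32 and 4.74 CPM in non-stress libraries. The part of the 8 markers in the level of Kcnj10 was not tested.

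Kcnj8, the pore of the ATP-sensitive channel of pericytes, had 3.72, 4.19 and 4.14 CPM in stress libraries, against 5.29, 5.06 and 4.86 CPM in non-stress libraries. The groups did not overlap, and the log2 fold change was -0.33 (SE 0.11; edgeR adjusted p = 0.351). Abcc9, its usual sulphonylurea receptor partner, had a log2 fold change of -0.07 (edgeR adjusted p = 0.901). The 6 mural cell markers summed to 141 to 150 CPM in stress libraries and 148 to 152 CPM in non-stress libraries. Of these, Rgs5 and Notch3 were lower at an unadjusted p under 0.05, with log2 fold changes of -0.14 and -0.53, Pdgfrb had -0.00421 and Vtn -0.02, Acta2 had 0.27 and Myh11 0.24 without passing that p, and none was at 0. Their part in the level of Kcnj8 was not tested.

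The Girk channels, opened by the beta-gamma part of Gi-coupled receptors' G proteins, had fold changes near 0. Kcnj9 had 220, 220 and 225 CPM in stress libraries, against 230, 239 and 222 CPM in non-stress libraries, with overlap only at stress library 3. In edgeR, the log2 fold change was -0.06, with a 95% interval from -0.15 to 0.04. Kcnj6 had -0.01 (interval -0.13 to 0.11), and Kcnj3 had -0.07 (interval -0.26 to 0.13). Kcnj4, a strong rectifier of forebrain neurons, averaged 34.4 ± 1.10 CPM in stress libraries and 39.96 ± 6.61 CPM in non-stress libraries (SD, n = 3 each; log2 fold change -0.22, edgeR adjusted p = 0.446).

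Among the Kcnk leak channels, Kcnk12, a member with little current of its own in expression systems, had 16.9, 17.7 and 17.5 CPM in stress libraries, against 19.95, 21.3 and 21.9 CPM in non-stress libraries. The groups were well separated, and the log2 fold change was -0.28 (SE 0.07; edgeR adjusted p = 0.344, DESeq2 adjusted p = 0.0885). Kcnk10, a mechano- and lipid-sensitive leak channel, had 11.2, 10.6 and 9.42 CPM in stress libraries, against 9.54, 8.92 and 7.12 CPM in non-stress libraries, with overlap at stress library 3 and non-stress library 1. Its log2 fold change was 0.29 (SE 0.12; edgeR adjusted p = 0.402). Kcnk1, which had the highest level per length of all 78 genes at 62.5 CPM per kb over the 6 libraries, had a log2 fold change of -0.03 with an interval from -0.13 to 0.07. Next per length came Kcnmb4 at 61.3 CPM per kb, Kcnj9 at 58.6 and Kcnip4 at 53.4, while the lowest levels were 0.149 CPM per kb for Kcnmb1 and 0.166 for Kcnq1.

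Among calcium-activated channels, the pore genes Kcnma1 and Kcnn2 had fold changes near 0. Kcnma1, the BK channel that shortens spikes, had 194, 195 and 197 CPM in stress libraries, against 198, 196 and 205 CPM in non-stress libraries. The groups overlapped, and its log2 fold change of -0.03 had an interval from -0.12 to 0.05. Kcnmb4, its neuronal beta subunit, averaged 79.6 ± 2.20 CPM in stress libraries and 88.1 ± 9.51 CPM in non-stress libraries (SD, n = 3 each; edgeR adjusted p = 0.459). Kcnn2, a small-conductance channel that follows spikes with an afterhyperpolarisation, had an interval from -0.11 to 0.12, and Kcnn3 had a log2 fold change of 0.25 (edgeR adjusted p = 0.534).

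The sodium-activated pair differed in direction. Kcnt1, whose gain of function in humans gives early epilepsy, had 41.7, 44.4 and 46.9 CPM in stress libraries, against 51.2, 52.7 and 48.7 CPM in non-stress libraries. Kcnt2 had 18.3, 18.04 and 16.8 CPM in stress libraries, against 18.2, 10.9 and 11.5 CPM in non-stress libraries. Every stress library was lower for Kcnt1, while for Kcnt2 non-stress library 1 lay among the stress values. The log2 fold change was -0.20 (SE 0.06; edgeR adjusted p = 0.345) for Kcnt1 and 0.39 (SE 0.17; edgeR adjusted p = 0.405) for Kcnt2. Kcnu1, a relative of Kcnma1 known from sperm, had 4.44, 4.67 and 4.61 CPM in stress libraries, against 3.83, 3.58 and 3.88 CPM in non-stress libraries (log2 fold change 0.28, edgeR adjusted p = 0.388).

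Proteins that cluster, traffic or modulate the channels were read from a separate list, of which 17 of 19 genes were tested. None passed the adjusted threshold in edgeR, 5 were lower at an unadjusted p under 0.05 and 0 were higher, where 6.27% and 5.8% of all genes were. DESeq2 called 1, against 0.999% of all genes. This was Vapb, an endoplasmic reticulum protein related to Vapa, with a log2 fold change of -0.29 (edgeR adjusted p = 0.344, DESeq2 adjusted p = 0.0458). Cntn2, which holds Kv1 channels beside the node of Ranvier, had -0.29 (edgeR adjusted p = 0.344), and Adam23, a receptor of the Kv1 modulator Lgi1, had -0.17 (edgeR adjusted p = 0.351). Dlg4 and Dpp6 made up the rest of the 5, at -0.18 and -0.12. Cntnap2, the partner of Cntn2 in the same complex, had 0.10 (edgeR adjusted p = 0.651), and Ank3, the scaffold of the initial segment, had -0.01.

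Of 11 genes for potassium pumps and cotransporters, all tested, 0 passed the adjusted threshold in edgeR or were called by DESeq2, and 4 were lower at an unadjusted p under 0.05 (background 6.27%). Among these were Atp1b2, a beta subunit of the sodium pump (log2 fold change -0.25, edgeR adjusted p = 0.351), and Slc12a5, the neuronal chloride extruder (-0.15, edgeR adjusted p = 0.376).

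GC content and non-stress library 1 moved with several of these values. Over the 78 genes, the GC percentage of the longest transcript and the log2 fold change had a Pearson r of -0.47 and a Spearman rho of -0.47, and Spearman's rho was -0.31 over all 17473 tested genes with a known GC content. Genes share the same 6 libraries, so these correlations are descriptions. The 13 genes lower at an unadjusted p under 0.05 had a median GC content of 55.2%, the 6 higher genes 46.2% and all 78 genes 52.9%. Non-stress libraries 2 and 3 were the lowest of the 6 libraries for 12 genes, or 15.4% (14.9% of all genes), and the highest for 15 genes, or 19.2% (13.2% of all genes).

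**Figure D4:**
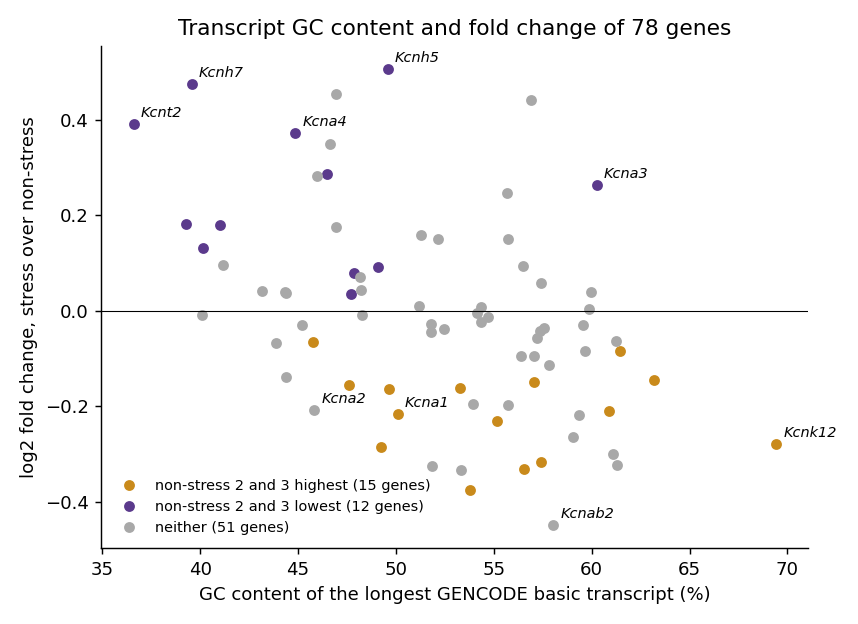
GC percentage of the longest transcript (horizontal axis) against log2 fold change, stress over non-stress (vertical axis), for the 78 potassium channel genes, with purple for the 12 genes lowest and gold for the 15 genes highest in non-stress libraries 2 and 3. Genes of high GC content, such as Kcnk12 at 69.4%, lie mostly below 0, while Kcnt2, at 36.6%, lies above.

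With a smooth trend on GC content and transcript length removed, 17 of the 78 genes had an unadjusted p under 0.05, 7 higher and 10 lower, against 11.5% of all genes, and 0 passed the adjusted threshold. The median log2 fold change was then 0.02, and 46 genes lay above 0. The log2 fold changes were as far or farther from 0 for Kcna2 (-0.25), Kcna3 (0.35) and Kcna4 (0.37), and nearer 0 for Kcna1 (-0.18), Kcnab3 (-0.16) and Kcnab2 (-0.33). Kcnk12, Kcnh2 and Kcnt1 had -0.13, -0.19 and -0.12, nearer 0 than before, and Kcnt2 had 0.15. Kcnb2 and Kcnip4 were close to 0, at 0.00333 and 0.00778.

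At an adjusted p under 0.05, edgeR called 0 of the 78 genes without stress library 1, 2 or 3 or non-stress library 2 or 3. The background was then 1 or 2 genes of the whole table. Without non-stress library 1, edgeR called 11 of the 78 at the same threshold, or 7 higher and 4 lower, against a background of 3.85%. The 7 were Kcnh7 (log2 fold change 0.86), Kcnh5 (0.69), Kcnt2 (0.66), Kcna4 (0.55), Kcnb2 (0.39), Kcnv1 (0.35) and Kcnip4 (0.24), and the 4 were Kcnk12 (-0.32), Kcnab3 (-0.29), Kcna1 (-0.28) and Kcnj10 (-0.22). Dropping the same library from the fit with the trend removed, an alternative chosen after the data were seen, gave 10 genes, 5 in each direction, against a background of 4.67%. These were Kcna1, Kcna2, Kcnab2, Kcnab3 and Kcnj10 on the lower side and Kcna3, Kcna4, Kcnh5, Kcnh7 and Kcnv1 on the higher side. No label marks non-stress library 1 as different, and all 6 libraries were kept in every value above unless stated.

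**Figure D5:**
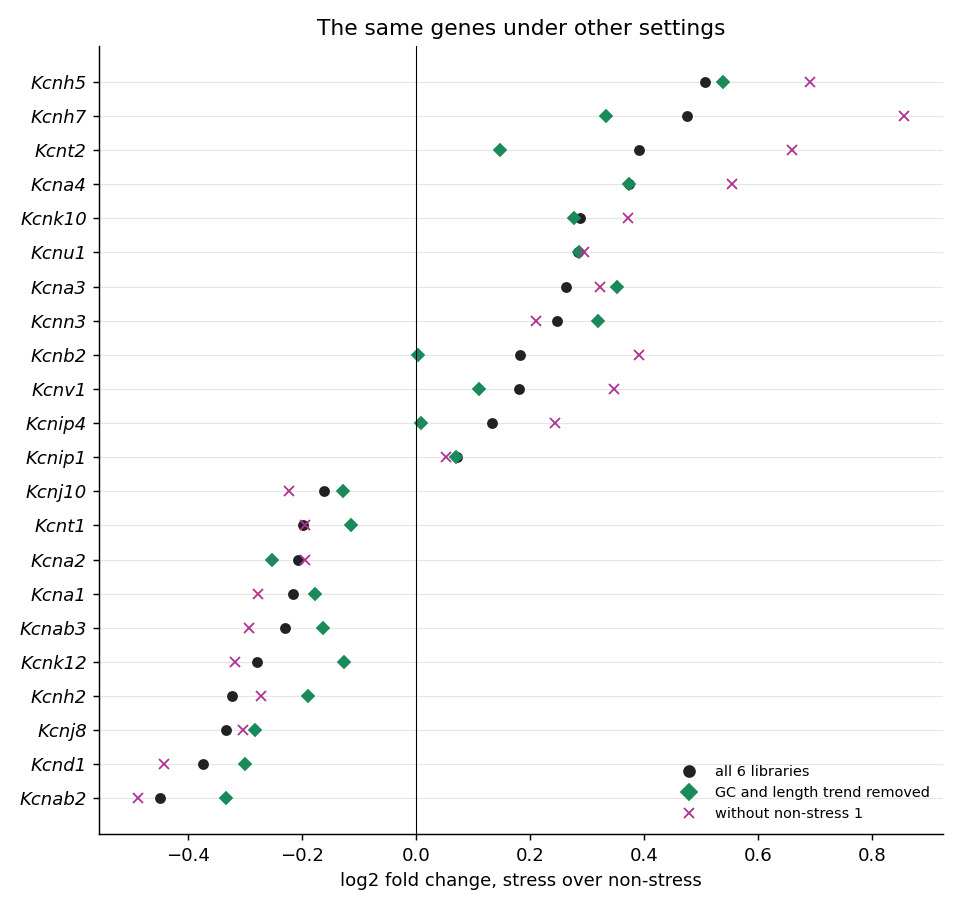
Log2 fold change, stress over non-stress (horizontal axis), of genes of smallest p-value in each direction with all 6 libraries, with the GC and length trend removed, and without non-stress library 1. The genes keep their direction under these settings, with Kcnb2 and Kcnip4 nearly at 0 once the trend is removed and Kcnh7 highest without non-stress library 1.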

How the data were processed

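Per the labels' protocols, total RNA of the anterior cingulate cortex was purified with a Direct-zol kit, then built into libraries by SMARTer low-input and TruSeq kits. Trimmomatic 0.38, HISAT2, StringTie and build GRCm38 (mm10) are named in the submitters' processing notes; how reads were counted, and whether by strand, is not given in the sources used here. The authors deposited 1 table of whole-number counts per gene, not normalised, and CPM are those counts scaled to the library's total. The group effect was fitted with edgeR 4.0.16 in R 4.3.3 (TMM, filterByExpr, quasi-likelihood test, two-sided), with Benjamini-Hochberg adjustment over 19227 genes. Intervals are 95% and log2 CPM used a prior count of 2. DESeq2 1.42.0, limma-voom 3.58.1, other scalings and filters, leaving out each library, and removal of a GC and length trend (mgcv 1.9.3) were alternatives. Length and GC content came from the longest transcript of each gene in the GENCODE basic set. They were known for 17473 of the tested genes (90.9%) and for all 78 potassium channel genes. Coordinates came from a gene table of the same build. The test was checked on simulated counts drawn independently for each gene and library. These held no variation shared between genes, such as the GC trend or the main axis above.

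The genes named are the 12 of smallest p-value in each direction and the most counted of each subfamily, with the 3 of smallest p-value per list; other genes were added to complete a family after their values were seen. Some genes that meet this rule are not reported here. The genes and lists were chosen with earlier results of these data known.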

Additional observations from a re-analysis of the deposited data

How the results depend on the processing

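With 3 libraries a group, an exact permutation test of a single gene cannot go below p = 0.1, and small counts limit genes such as Kcnmb3. With GC and length corrected, the median log2 fold change of the 78 genes was 0.0239, against -0.0281 as reported. It was 0.0419 when non-stress library 1 was also left out, and lay between -0.0351 (without stress library 3) and -0.00769 (without non-stress library 2) when single libraries were left out. Genes called over the whole table numbered 1 as reported, 107 with DESeq2, 2 with limma-voom, 3 with the replicate block, 3 with the trend removed, 897 with the trend removed and without non-stress library 1, and 1 to 756 without single libraries, 756 being without non-stress library 1 and 2 the highest of the others. Potassium channel genes called numbered 0 as reported, 3 with DESeq2, 10 with the trend removed and without non-stress library 1, and 0 to 11 without single libraries. Those at an unadjusted p under 0.05 numbered 19 as reported and 14 to 34 without single libraries. The share of all genes at that p was 12.1% as reported. It was 6.52% and 6.71% without stress libraries 1 and 2, where 14 potassium channel genes were counted. Without non-stress library 1, where 34 were counted, it was 19.5%. Partner genes called numbered 0 as reported, 1 with DESeq2, 2 with the trend removed and without non-stress library 1, and 0 to 3 without single libraries. The cause of these differences was not tested.

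Same-numbered libraries did not deviate together (correlations 0.016, -0.03 and 0.021), so the numbers were not taken as pairs. The replicate block counted 19 potassium channel genes at an unadjusted p under 0.05, against 11% of all genes, and 0 after adjustment.

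Of the named genes, 11 near 0 changed sign under some setting. With the trend removed, the log2 fold changes were 0.0359 for Kcnc1, 0.0718 for Kcnf1, 0.0446 for Kcng2, 0.0721 for Kcnh3, 0.0527 for Kcnip3, 0.0410 for Kcnj9 and 0.00286 for Kcnk1. With non-stress library 1 also left out they were 0.136 for Kcne1l, 0.0829 for Kcnf1, 0.0918 for Kcnh3, 0.0449 for Kcnip3, 0.0688 for Kcnj9, 0.0111 for Kcnk1 and -0.0191 for Kcns2. With a filter of 50 counts, Kcnf1 had 0.00231. Without single libraries, the ranges were -0.103 to 0.0110 for Kcnc1, -0.00963 to 0.0740 for Kcnd2, -0.266 to 0.0696 for Kcne1l, -0.0401 to 0.0418 for Kcnf1, -0.181 to 0.00928 for Kcng2, -0.131 to 0.0173 for Kcnh3, -0.0438 to 0.0281 for Kcnip3, -0.0346 to 0.0353 for Kcnn2 and -0.0421 to 0.117 for Kcns2.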
